A study of Mus musculus with 8 samples.

Results

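The genes described here encode the apolipoproteins that the liver secretes on lipoproteins, with the pair of proteins that load lipid onto apolipoprotein B, namely Apoa1, Apoa2, Apoa4, Apoa5, Apob, Apoc2, Apoc3, Apoe, Mttp and Tm6sf2. They were taken by name from the table of read counts, and all 10 of them were among its 49585 genes. Their RNA was measured by sequencing in the livers of 8 male mice that had eaten HFCD, a choline-deficient and high-fat chow, for 3 months from 21 days of age. Choline is needed to make phosphatidylcholine, the main lipid on the surface of very low density lipoprotein (VLDL). The groups were 3 LP+/+, 2 LPfl/+ and 3 LP245/+ livers. LPfl/+ mice carried Alb-Cre and Trp53fl/+, so that 1 Trp53 allele is deleted in the cells that express the recombinase. LP245/+ mice carried Alb-Cre and Trp53wm-R245W/+, so that recombination gives 1 allele for p53R245W. The albumin promoter drives Cre in the hepatocyte and bile duct lineages, and RNA of the whole liver also holds the unrecombined cells. The labels describe the LP+/+ livers as negative for Alb-Cre, replicates 1 and 2 with Trp53fl/+ and replicate 3 with Trp53wm-R245W/+, whereas the text of the study describes LP+/+ as carriers of Alb-Cre without altered Trp53 and its methods name both Cre-negative and Alb-Cre littermates as controls. By the labels LP+/+ therefore differed from the other groups in Cre as well as in the state of Trp53.

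Hepatocytes assemble VLDL in the endoplasmic reticulum, where the microsomal triglyceride transfer protein encoded by Mttp loads lipid onto apolipoprotein B while it is being made, and Tm6sf2 takes part in the further lipidation of the particle. Apolipoproteins A-I and A-II form the scaffold of high density lipoprotein (HDL), apolipoprotein E is a ligand by which receptors take up remnant particles, and apolipoproteins C-II, C-III and A-V activate, restrain and favour the action of lipoprotein lipase on plasma triglyceride. Apolipoprotein A-IV is made mostly in the intestine, and in mouse liver its gene is known to respond strongly to feeding state and fat load.

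In the GRCm38 build, 4 of the genes lie side by side on chromosome 9, in the order Apoa1 (46228580 to 46230466, plus strand), Apoc3 (46232933 to 46235636, minus strand), Apoa4 (46240696 to 46243459, plus strand) and Apoa5 (46268633 to 46271919, plus strand). Apoe (19696109 to 19699188) and Apoc2 (19671579 to 19677941) lie on the minus strand of chromosome 7, with Apoc1 and Apoc4 between them. The others stand alone, Apoa2 on chromosome 1 (171225054 to 171226379), Mttp on chromosome 3 (138089854 to 138144968), Tm6sf2 on chromosome 8 (70072924 to 70080066) and Apob on chromosome 12 (7977648 to 8016835). RefSeq promoter windows of 300 bases, from 250 before to 50 after a start, were found for 8 of the 10 genes. The bases before the gene start are printed for the 3 genes of the chromosome 9 cluster that have a window, because these neighbours gave different patterns over the livers. They are written 5′ to 3′ on the plus strand of GRCm38.p6, at chr9:46228380-46228579 for Apoa1, chr9:46240594-46240695 for Apoa4 and chr9:46268383-46268632 for Apoa5, with matches to the searched motifs in capitals, and they are shorter where the RefSeq start lies inside the GENCODE gene.
Apoa1: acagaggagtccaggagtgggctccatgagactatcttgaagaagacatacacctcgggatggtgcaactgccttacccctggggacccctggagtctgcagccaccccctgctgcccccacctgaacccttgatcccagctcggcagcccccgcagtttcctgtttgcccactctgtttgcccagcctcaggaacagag
Apoa4: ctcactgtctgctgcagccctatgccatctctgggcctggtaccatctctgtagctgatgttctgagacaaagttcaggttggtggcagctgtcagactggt
Apoa5: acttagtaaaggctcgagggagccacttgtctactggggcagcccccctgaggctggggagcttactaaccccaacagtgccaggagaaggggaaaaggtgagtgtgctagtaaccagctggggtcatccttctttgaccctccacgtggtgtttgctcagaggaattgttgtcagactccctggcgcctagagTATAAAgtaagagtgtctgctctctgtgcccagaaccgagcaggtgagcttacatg
Only the sequence of Apoa5 holds a capital stretch, a TATAAA that begins 56 bases before the gene start and 31 bases before another start listed by RefSeq. Both strands of the windows were searched for TATAAA, for the HNF4 letters CAAAGTCCA, for the nuclear receptor repeat DR1, for the forkhead letters TGTTTAC and for the cyclic AMP response element TGACGTCA. TATAAA was in a window of 4 of the 8 genes, Apoa2, Apoa5, Apob and Apoe, and in 13.6% of all 32851 windows. TGTTTAC was in a window of Apoa2 and Apoe and in 3.65% of all windows. CAAAGTCCA, DR1 and TGACGTCA were in 0.475%, 0.0396% and 1.79% of all windows and in none of these genes' windows. Apoa2, Apoa5 and Apoe have more than 1 window, so counts of genes cannot be set directly against shares of windows. The matches of Apoe lie in windows of starts inside the gene, and the window at its gene start holds none.

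The total counts were 28500707, 30331374 and 31370714 in LP+/+ replicates 1 to 3, 27741288 and 26345208 in LPfl/+ replicates 1 and 2, and 26304526, 28310329 and 29846962 in LP245/+ replicates 1 to 3. The floor of detection was taken as 3 counts, which is between 9.56e-06% and 1.14e-05% of a library and covers counting error only. Hepatocyte markers were abundant in every liver, with albumin between 78099 and 112497 CPM (counts scaled to a common library total), and 0 of the 13 had an unadjusted p below 0.05 in any comparison (edgeR's quasi-likelihood test). Among markers of intestine and exocrine pancreas, tissues that lie next to the liver, 12 of 13 were in the table. Of these, 9 had fewer than 10 counts in every liver, Prss1, Prss2, Amy2a5 and Ctrb1 were at 0 in all of them, and the sum of the list was between 113.6 and 201.9 CPM, most of it from Fabp2.

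The libraries stood apart by a feature other than genotype. Their numbers fall into 2 series. The first holds the 3 LP245/+ livers and LP+/+ replicates 2 and 3, and the second holds LP+/+ replicate 1 and both LPfl/+ livers. The first principal component, 31.1% of the variance of log2 CPM, separated the 2 series. The labels do not say what a series stands for. Of the 16496 genes tested, 1587 (9.62%) had values of log2 CPM with TMM factors that did not overlap between the series, 838 of them higher in the second. Apoa4 was among those higher in the second series, and Apoa2 and Apoc2 were among those lower in it, though the normalised counts of Apoc2 given further on overlap between the series (43.57 in LPfl/+ replicate 1 against 43.45 in LP245/+ replicate 2). No series holds both LPfl/+ and LP245/+ livers, so that in a comparison of these genotypes the series and the genotype cannot be told apart, and only LP+/+ was measured in both series.

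Together the 10 genes took between 4.186% and 4.889% of all counts of a liver. The mean share of LP+/+ livers was 4.599% ± 0.203 (SD, n = 3), that of LPfl/+ livers 4.503% ± 0.111 (SD, n = 2) and that of LP245/+ livers 4.556% ± 0.353 (SD, n = 3). Relative to LP+/+, the share differed by -0.0438 percentage points in LP245/+ (2-sided exact permutation p = 1, n = 3 and 3) and by -0.0959 points in LPfl/+ (2-sided exact permutation p = 0.8, n = 2 and 3). The smallest p that this test allows is 0.1 for 3 against 3 livers and 0.2 for 2 against 3. Between LP245/+ and LPfl/+ it differed by 0.0521 points (2-sided exact permutation p = 0.8). The highest and the lowest share were both in LP245/+ livers. In summed normalised read counts, which are counts divided by DESeq2 size factors, both LPfl/+ livers (1243722 and 1218885) were below the 3 LP+/+ livers (1248009, 1293053 and 1425032). The difference of means was -90728 (2-sided exact permutation p = 0.2, the smallest that 2 against 3 livers allow).

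To compare genes with each other, counts were divided by exon length and library total (RPKM). Apoa2 had the highest level, with a mean of 10918 RPKM over the 8 livers and a range of 9273 to 12331. Apoe (mean 6642 RPKM, 5247 to 7738) and Apoa1 (mean 5905 RPKM, 4524 to 7088) followed, and their ranges overlapped. Apoc3 (mean 1358 RPKM, 1235 to 1475) and Apob (mean 1115 RPKM, 887.9 to 1422) came next, also with overlapping ranges. Apoa5 had a mean of 256.6 RPKM (224.6 to 280.1). Its range lay inside that of Apoa4, which had a mean of 166.5 RPKM and ran from 58.98 to 350.5. The genes for the loading proteins were lower, Mttp with a mean of 54.63 RPKM (50.03 to 64.29) and Tm6sf2 with 12.05 RPKM (8.985 to 13.9). Apoc2 was last at 2.031 RPKM, a value that may not stand for the level of its transcript. Of its 813 exon bases, 646 (79.5%) also belong to Gm44805, an annotated gene on the same strand that is listed at 0 in all livers, and the gene counts of STAR leave out a read that falls on 2 genes. Whether this lowered the counts of Apoc2 was not tested. The adjoining Apoc4 had between 7656 and 11280 counts per liver, against 36 to 74 for Apoc2. The other 9 genes share no exon bases on their strand with another gene.

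**Figure D1:**
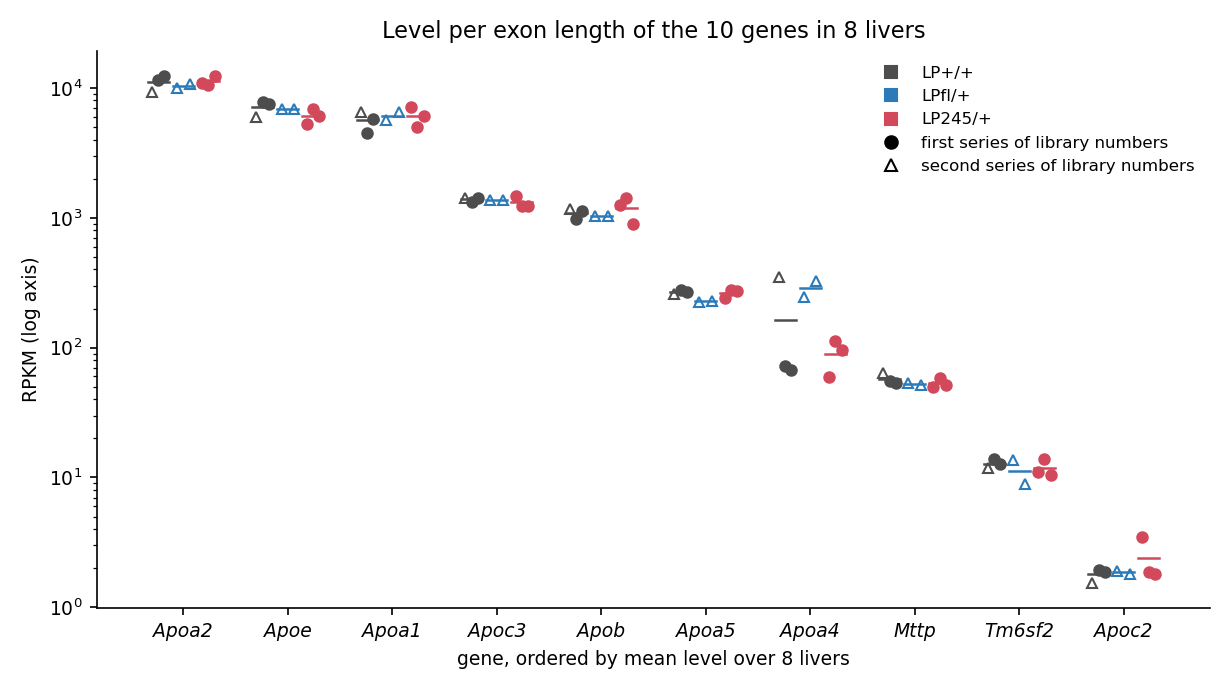
RPKM on a log axis of the 10 genes, ordered by their mean over the livers, with 1 point per liver, a line at each genotype's mean, colours for the genotypes, filled circles for the first series of library numbers and open triangles for the second. The levels run from a mean of 10918 RPKM for Apoa2 down to 2.031 RPKM for Apoc2, and the highest liver is at most 1.683-fold the lowest for 8 of the genes in normalised read counts. The exceptions are Apoa4, whose 3 triangles stand above its 5 circles, and Apoc2, with LP245/+ replicate 1 above the other livers.

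None of the 10 genes passed the cutoff of the study, an adjusted p no higher than 0.05 and a log2 fold change no smaller than 1 in size, in edgeR's quasi-likelihood test with Benjamini-Hochberg adjustment over all genes tested. All 10 had passed the filter on low counts. In LP245/+ versus LP+/+, 0 of them were called, where 1 of all 16496 genes (0.00606%) was. In the same comparison 0 had an unadjusted p below 0.05, where 978 genes (5.93%) did, and for 0 of them did the groups not overlap in log2 CPM with TMM factors, where this held for 1906 genes (11.6%). In LPfl/+ versus LP+/+, 0 of the 10 and 0 of all genes (0%) were called, and 0 had an unadjusted p below 0.05, where 1137 genes (6.89%) did. The groups did not overlap for Mttp and Apoa5, 2 of the 10, where this held for 4112 genes (24.9%). In LP245/+ versus LPfl/+, 0 of the 10 and 0 of all genes (0%) were called. Apoa4 alone had an unadjusted p below 0.05, where 1404 genes (8.51%) did, and the groups did not overlap for 4 of the 10, Apoa2, Apoc2, Apoa4 and Apoa5, where this held for 4184 genes (25.4%). For Apoc2 it did not hold in counts divided by DESeq2 size factors. DESeq2, the tool of the study, also called 0 of the 10 in each comparison, where it called 10, 9 and 56 of all genes, and its unadjusted p was below 0.05 for 0, 1 and 1 of them, both times Apoa5. The median log2 fold change of the 10 was -0.04, -0.13 and 0.11 in the 3 comparisons in this order, where the median of all genes was 0.00. The 13 hepatocyte markers had medians of -0.05, -0.22 and 0.14. In LPfl/+ versus LP+/+, 11 of these markers and 8 of the 10 genes had lower values, and the part of the hepatocyte share of the RNA in the values of the 10 genes was not tested. Both comparisons with LP+/+ share the same LP+/+ livers.

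**Figure D2:**
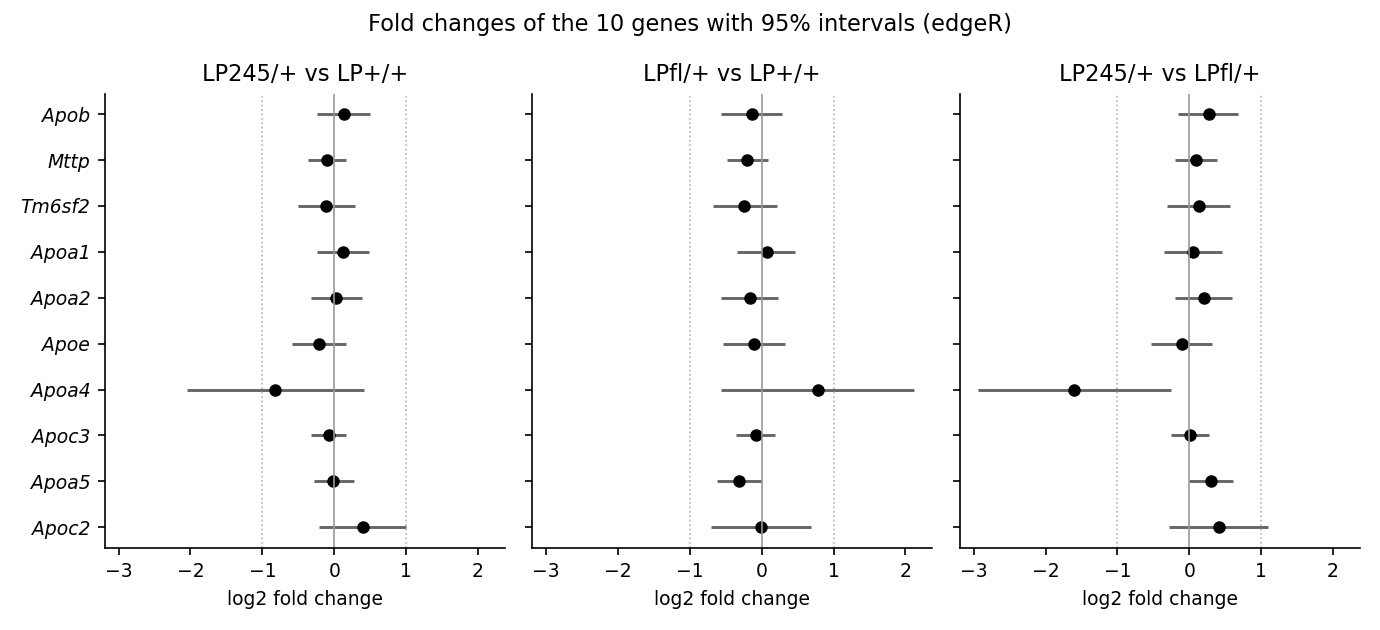
log2 fold changes of the 10 genes in the 3 comparisons, with points for the edgeR estimate, bars for its 95% interval and dotted lines at the fold change cutoff of -1 and 1. The points lie between -0.31 and 0.41 except for Apoa4, whose interval is the widest and leaves 0 only in LP245/+ versus LPfl/+.

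Among the genes of VLDL assembly, Apob encodes the protein core of the particle. Its normalised read counts were 450195, 394182 and 467619 (LP+/+), 406596 and 382218 (LPfl/+) and 477200, 566599 and 376021 (LP245/+). LP245/+ held both the highest and the lowest liver, and all groups overlapped. The log2 fold change from LP+/+ was 0.13 in LP245/+ (standard error, SE, 0.17; 95% interval -0.24 to 0.50) and -0.14 in LPfl/+ (SE 0.19, -0.56 to 0.28), with adjusted p-values of 0.926 and 0.899. Mttp counted 10987, 10056 and 9701 (LP+/+), 9255 and 8523 (LPfl/+) and 8439, 10344 and 9657 (LP245/+) (normalised read counts). Both LPfl/+ livers were below all LP+/+ livers, by a log2 fold change of -0.20 (SE 0.13, adjusted p = 0.792), and the LP245/+ livers overlapped with both groups. Tm6sf2 counted 622.2, 764.5 and 712.4 (LP+/+), 726.5 and 454.4 (LPfl/+) and 570.4, 755.8 and 606.9 (LP245/+). The pair of LPfl/+ livers spanned almost the whole range, and LPfl/+ replicate 2 was the lowest of all. Without LPfl/+ replicate 1, the log2 fold change of Tm6sf2 from LP+/+ moved from -0.24 (adjusted p = 0.828) to -0.63, and without replicate 2 to 0.05.

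Apoa1 and Apoa2 carry HDL. Apoa1 had normalised read counts of 223414, 162904 and 209544 (LP+/+), 197454 and 216086 (LPfl/+) and 238139, 178294 and 226325 (LP245/+). Its groups overlapped in every comparison, with log2 fold changes of 0.12 (95% interval -0.24 to 0.48) in LP245/+ and 0.07 (-0.34 to 0.47) in LPfl/+ versus LP+/+. Apoa2 had 137111, 179774 and 195489 (LP+/+), 150959 and 151745 (LPfl/+) and 158707, 161102 and 200105 (LP245/+). LP+/+ replicate 1 was the lowest liver for Apoa2, and the 3 livers of the second series lay below the 5 of the first. The LPfl/+ livers were below all LP245/+ livers, by a log2 fold change of 0.20 in LP245/+ versus LPfl/+ (SE 0.18, adjusted p = 0.803). With the series as a covariate this value turned to -0.25. Apoe, the remnant ligand, had 350464, 481976 and 475587 (LP+/+), 410995 and 391875 (LPfl/+) and 304945, 419421 and 394946 (LP245/+). LP245/+ replicate 1 was the lowest and LP+/+ replicate 1 the next lowest, so that the groups overlapped. The log2 fold change of Apoe was -0.21 in LP245/+ (SE 0.17, 95% interval -0.59 to 0.17, adjusted p = 0.868) and -0.11 in LPfl/+ (SE 0.19, adjusted p = 0.920) versus LP+/+.

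Of the genes that act on lipoprotein lipase, Apoc3, which encodes an inhibitor of triglyceride clearance, varied least of the 10, with an SD of log2 CPM of 0.0772 over the 8 livers. Its normalised read counts were 39830, 39014 and 42689 (LP+/+), 39175 and 36825 (LPfl/+) and 40652, 35817 and 38212 (LP245/+). The 95% interval of its log2 fold change was -0.32 to 0.17 in LP245/+ and -0.36 to 0.19 in LPfl/+ versus LP+/+, and -0.26 to 0.28 between LP245/+ and LPfl/+. Differences in Apoc3 larger than these bounds are not covered by the intervals. Apoa5, which favours lipolysis, had 17833, 20503 and 20030 (LP+/+), 15921 and 15331 (LPfl/+) and 16481, 20204 and 21016 (LP245/+). Both LPfl/+ livers were below the 6 other livers. The log2 fold change of Apoa5 was -0.31 in LPfl/+ versus LP+/+ (SE 0.14, 95% interval -0.62 to 0.01, adjusted p = 0.727) and 0.30 in LP245/+ versus LPfl/+ (SE 0.14, adjusted p = 0.589). With the series as a covariate these values were of the same sign but smaller in size, at -0.18 and 0.12. That fit links the series only through the LP+/+ livers, of which 1 is in the second series. Without the covariate, LP245/+ differed from LP+/+ by -0.01 in Apoa5 (95% interval -0.28 to 0.27). Apoc2, the activator of lipoprotein lipase, had 34.78, 46.1 and 45.17 (LP+/+), 43.57 and 39.38 (LPfl/+) and 76.47, 43.45 and 44.8 (LP245/+). LP245/+ replicate 1 stood above all others, and without it the log2 fold change of Apoc2 from LP+/+ moved from 0.40 (SE 0.27, adjusted p = 0.846) to 0.07.

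Apoa4 varied most, with an SD of log2 CPM of 1.02 and a 6.02-fold range over the livers. Its normalised read counts were 17518, 3833 and 3614 (LP+/+), 12596 and 15788 (LPfl/+) and 2910, 5883 and 5270 (LP245/+). The highest liver was LP+/+ replicate 1, and it stood with both LPfl/+ livers between 12596 and 17518, whereas LP+/+ replicates 2 and 3 stood with the LP245/+ livers between 2910 and 5883. The values divided by the series of library numbers, with a mean 3.557-fold higher in the second series, and the LP+/+ livers, which alone were in both series, fell on both sides of the divide. LP+/+ has 1 liver in the second series, and for LPfl/+ and LP245/+ series and genotype cannot be told apart. The log2 fold change was -0.82 in LP245/+ (SE 0.55, adjusted p = 0.846) and 0.78 in LPfl/+ (SE 0.60, adjusted p = 0.815) versus LP+/+, and -1.60 in LP245/+ versus LPfl/+ (SE 0.60, 95% interval -2.94 to -0.25, unadjusted p = 0.0248, adjusted p = 0.525, edgeR). Within the first series, the log2 ratio of the mean normalised counts of LP245/+ to LP+/+ was 0.33, from 3 and 2 livers. Within the second, that of LPfl/+ to LP+/+ was -0.30, from 2 livers and 1 liver. Between LP+/+ replicate 1 and the mean of replicates 2 and 3, livers of the same group, the log2 ratio was 2.23, larger in size than the 3 log2 fold changes just given.

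**Figure D3:**
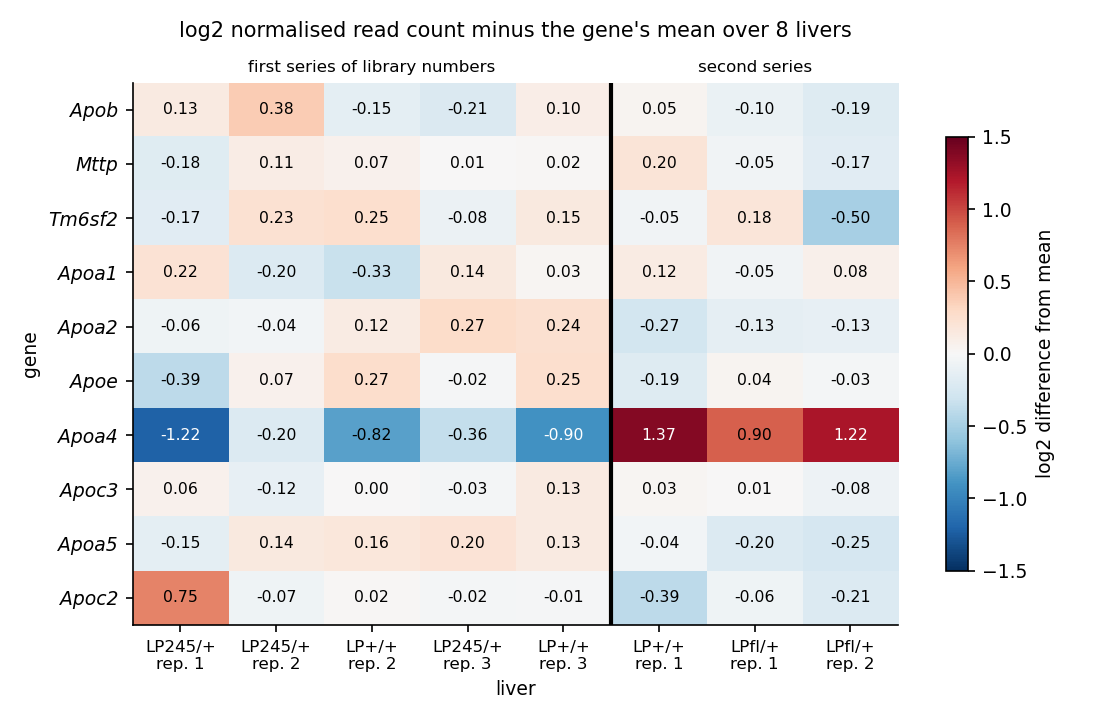
Each cell gives the log2 normalised read count of a gene in a liver minus the mean of that gene over the 8 livers, with livers in columns, divided by a line into the 2 series of library numbers, and genes in rows ordered by role. Apoa4 is below its mean in all 5 livers of the first series, by 0.20 to 1.22, and above it by 0.90 to 1.37 in all 3 of the second, and Apoc2 stands out in LP245/+ replicate 1 with 0.75.

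The calls on Apoa4 turned on 1 LP+/+ liver, on the filter and on the groups fitted. In LP245/+ versus LPfl/+ it was called without the filter on low counts (-1.59, adjusted p = 0.039) and with only these groups in the fit (-1.59, adjusted p = 0.0469). Without LP+/+ replicate 1, Apoa4 passed the cutoff in LPfl/+ versus LP+/+, with a log2 fold change of 1.94 (SE 0.28, adjusted p = 0.0202, against 0.0202 to 1 over all alternatives), and in LP245/+ versus LPfl/+ with -1.60 (SE 0.24, adjusted p = 0.0282, against 0.0282 to 0.995). In the same fit 59 and 47 of all genes were called in these 2 comparisons. Without that liver LP+/+ is left with livers of the first series only, whereas both LPfl/+ livers are of the second. In both comparisons of that fit, series and genotype therefore cannot be told apart. Without LP+/+ replicate 3, the value in LPfl/+ versus LP+/+ was 0.41 (adjusted p = 0.963). In LP245/+ versus LP+/+ the value without replicate 1 turned from -0.82 to 0.34 (adjusted p = 0.846). With that liver kept and the series as a covariate, the 3 values were 0.34, -0.30 and 0.64, all opposite in sign to those without the covariate, and none passed. That fit links the series only through the LP+/+ livers.

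**Figure D4:**
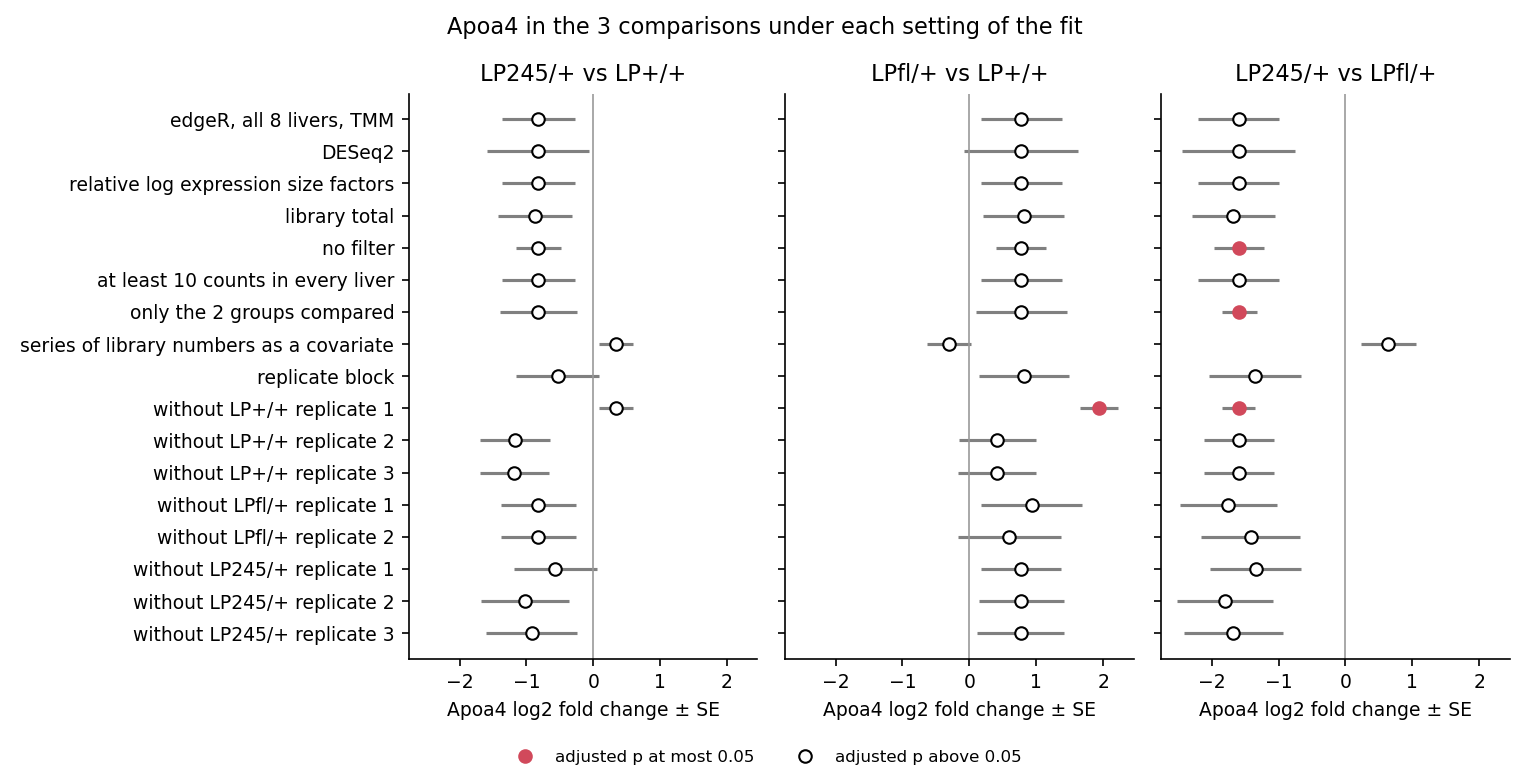
log2 fold change of Apoa4 with its SE in the 3 comparisons, 1 row per setting of the fit, with red filled points where the adjusted p was at most 0.05. The values without LP+/+ replicate 1 and with the series as a covariate stand apart from the others in LP245/+ and LPfl/+ versus LP+/+, and in LP245/+ versus LPfl/+ only the covariate turns the sign.

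The neighbours of Apoa4 in the cluster did not share its pattern. The log2 ratio between LP+/+ replicate 1 and the mean of LP+/+ replicates 2 and 3, which was 2.23 for Apoa4, was 0.26 for Apoa1, -0.04 for Apoc3 and -0.19 for Apoa5. The mean over the second series against the first was 1.046-fold for Apoa1, 0.983-fold for Apoc3 and 0.8328-fold for Apoa5. Gm47528, an unclassified transcript annotated on the strand opposite to the start of Apoa4 (chromosome 9, from 46239841 to 46242032), had raw counts of 80, 8 and 6 (LP+/+), 49 and 49 (LPfl/+) and 14, 41 and 27 (LP245/+). Its highest 3 libraries were those of Apoa4. The libraries are stranded, but the strand that was counted is not given in the sources used here, so these few counts cannot be assigned with certainty to either strand.

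Beyond the 10 genes, other apolipoproteins were followed with a list of 18 genes, 17 of them tested, which also holds Lcat, Pon1 and Pon3, enzymes carried on HDL, and shares Lcat with the list of lipases and remodelling. In LP245/+ versus LP+/+, 0 of them were called and 2 had an unadjusted p below 0.05, both lower and both serum amyloid A genes, acute-phase apolipoproteins of HDL. Saa3 had normalised read counts of 75.36, 147 and 85.64 (LP+/+), 169.2 and 109.1 (LPfl/+) and 42.37, 48.5 and 38.69 (LP245/+). The LP245/+ livers were below all others, by a log2 fold change of -1.23 from LP+/+ (SE 0.29, adjusted p = 0.795) and of -1.68 from LPfl/+ (SE 0.32, adjusted p = 0.362). Saa1 had 707.2, 941.3 and 403.7 (LP+/+), 1258 and 991.6 (LPfl/+) and 385.4, 465.8 and 403.2 (LP245/+). Its log2 fold change from LP+/+ was -0.70 in LP245/+ (adjusted p = 0.795) and 0.73 in LPfl/+ (adjusted p = 0.704), and between LP245/+ and LPfl/+ it was -1.42 (adjusted p = 0.362). It was the 1 gene of the list with an unadjusted p below 0.05 in LPfl/+ versus LP+/+. Saa1 and Saa2 are near-identical copies, and their counts could be split between them. In LP245/+ versus LPfl/+, 4 of the 17 had an unadjusted p below 0.05, Saa1, Saa2 and Saa3 lower and Apoc4 higher. The median log2 fold change of the list was -0.09, -0.10 and -0.01 in the 3 comparisons. Macrophages also express Saa3. Of 15 Kupffer cell and macrophage markers, 14 had lower values in LP245/+ than in LP+/+ (median log2 fold change -0.19), 3 of them without overlap between the groups, with 0 called and 0 at an unadjusted p below 0.05 in edgeR. In LP245/+ versus LPfl/+ 0 were called (median log2 fold change -0.34), and 5 had lower values at an unadjusted p below 0.05, namely C1qa, C1qb, C1qc, Vsig4 and Cd68, with 0 higher. The sum of these 15 markers was 544.7, 596.9 and 531.5 CPM (LP+/+), 692.2 and 554.4 CPM (LPfl/+) and 478.5, 541.7 and 464.3 CPM (LP245/+), with Clec4f the most abundant. Their part in the values of the Saa genes was not tested, and in whole liver fewer cells of a type cannot be told from less RNA per cell.

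The list of lipoprotein assembly and export held 37 genes, all tested, for lipid supply, folding in the endoplasmic reticulum and COPII transport to the Golgi. In LP245/+ versus LP+/+, 0 were called and 1 had an unadjusted p below 0.05, Tmem41b, which encodes a scramblase of the endoplasmic reticulum needed for lipoprotein export. Tmem41b had normalised read counts of 548.8, 529.2 and 473.4 (LP+/+), 461 and 386.7 (LPfl/+) and 659.3, 602.2 and 686.3 (LP245/+), so that the 3 genotypes did not overlap. Its log2 fold change was 0.34 in LP245/+ (SE 0.11, adjusted p = 0.795) and -0.28 in LPfl/+ (SE 0.12, adjusted p = 0.721) versus LP+/+, and 0.62 in LP245/+ versus LPfl/+ (SE 0.12, adjusted p = 0.362). In that last comparison Sec24a, a cargo adaptor of COPII (0.45, adjusted p = 0.537), and Cideb, which acts in the lipidation of VLDL (0.32, adjusted p = 0.542), were also higher at an unadjusted p below 0.05. Tmem41b was also the 1 gene of the list below 0.05 in LPfl/+ versus LP+/+, and the median log2 fold change of the list was 0.02, -0.06 and 0.09 in the 3 comparisons.

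Among 15 tested genes of lipoprotein receptors and uptake, 0 were called, and 0, 0 and 1 had an unadjusted p below 0.05 in the 3 comparisons (list medians -0.04, -0.18 and 0.13). That gene was Sorl1, a sorting receptor, which had 853.1, 189.2 and 157.2 (LP+/+), 850.1 and 350.4 (LPfl/+) and 189.1, 162.7 and 163.9 (LP245/+) (normalised read counts). Like Apoa4 it was high in LP+/+ replicate 1, and its log2 fold change in LP245/+ versus LPfl/+, -1.80 (adjusted p = 0.497), turned to as much as 0.50 over the alternatives. Of 18 genes for plasma lipases and remodelling, 0 were called, and 0, 1 and 4 had an unadjusted p below 0.05 (list medians 0.04, -0.10 and 0.08). In LPfl/+ versus LP+/+ it was Pcsk6, which was lower (-0.64, adjusted p = 0.704). Its normalised read counts were 2430, 3831 and 3967 (LP+/+), 2544 and 1803 (LPfl/+) and 3186, 4308 and 2923 (LP245/+). The livers of the second series of library numbers were the lowest for Pcsk6. Within that series its log2 ratio of LPfl/+ to LP+/+ was -0.161. The 4 in LP245/+ versus LPfl/+ were Lpl, which encodes lipoprotein lipase, lower (-0.36, adjusted p = 0.538), and Angptl8, an inhibitor of that enzyme induced by feeding (1.37, adjusted p = 0.571), the proprotein convertase Pcsk6 (0.68, adjusted p = 0.512) and the sterol transporter Abcg8 (0.33, adjusted p = 0.571), higher. The value of Angptl8 turned to -0.44 under the alternative farthest from it.

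Regulators known to act on apolipoprotein genes numbered 30. In LP245/+ versus LP+/+, 0 were called and 1 had an unadjusted p below 0.05, Nr1d1, a repressor of the circadian clock (log2 fold change 1.17, SE 0.50, adjusted p = 0.831). Nr1d1 had normalised read counts of 147.8, 901.9 and 721.8 (LP+/+), 462 and 296.9 (LPfl/+) and 1764, 1156 and 1025 (LP245/+). Within the first series, which leaves out LP+/+ replicate 1, its log2 ratio of LP245/+ to LP+/+ was 0.696. In LPfl/+ versus LP+/+, 0 were called and 0 had an unadjusted p below 0.05 in edgeR. In LP245/+ versus LPfl/+, 6 of the 30 (Foxo3, Nr1d1, Hnf4a, Ppara, Rxra and Foxo1) were higher at an unadjusted p below 0.05 and 0 lower. Among all genes, 1404 (8.51%) had such a p in this comparison, in either direction. For Foxo3, Nr1d1, Ppara and Foxo1 the 3 livers of the second series were the lowest 3 in normalised read counts, and for Rxra they were not. The median log2 fold change of the list was 0.02, 0.00 and 0.06. Hnf4a, a nuclear receptor that drives many apolipoprotein genes in hepatocytes, had 15844, 18322 and 20526 (LP+/+), 15267 and 15454 (LPfl/+) and 21172, 18233 and 20847 (LP245/+) (normalised read counts). The 3 livers of the second series were its lowest 3, and the log2 fold change of 0.39 in LP245/+ versus LPfl/+ had an adjusted p of 0.509. Creb3l3, an activator of Apoa4 and Apoa5 in fasting, had 7659, 8155 and 8568 (LP+/+), 7738 and 8366 (LPfl/+) and 7016, 8141 and 7768 (LP245/+), and its mean over the second series was 0.9989-fold that over the first.

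Genes that follow feeding state and the time of day formed a list of 22. Of these, 0 were called, and 9 had an unadjusted p below 0.05 in LP245/+ versus LP+/+ (5 higher, 4 lower), 2 in LPfl/+ versus LP+/+ (both lower) and 13 in LP245/+ versus LPfl/+ (9 higher, 4 lower). The median log2 fold change of the list was 0.00, -0.34 and 0.53. Dbp, an output gene of the clock, had 23.19, 220.9 and 101.6 (LP+/+), 64.84 and 51.5 (LPfl/+) and 666.5, 266.7 and 529.5 (LP245/+) (normalised read counts). Arntl, which encodes a core activator of the clock, had 1073, 537.9 and 658.8 (LP+/+), 758.9 and 831 (LPfl/+) and 235.6, 497.1 and 355.4 (LP245/+). LP+/+ replicate 1 was the lowest liver for Dbp and the highest for Arntl. Cyp4a14, a target of Ppara in fasting and fat load, had 117.9, 8610 and 16177 (LP+/+), 2298 and 1185 (LPfl/+) and 5535, 7736 and 4975 (LP245/+), so that the 3 livers highest for Apoa4 were lowest for Cyp4a14. Other genes of the list did not divide in this way. Scd1, a desaturase of lipid synthesis, had 291101, 241576 and 171366 (LP+/+), 166070 and 110346 (LPfl/+) and 271241, 236185 and 229209 (LP245/+), with LP+/+ replicate 1 highest and LPfl/+ replicate 2 lowest. Fgf21, a liver hormone of nutrient stress, had 117.9, 117.2 and 126.1 (LP+/+), 73.96 and 68.66 (LPfl/+) and 227.3, 190 and 216.9 (LP245/+). The 3 genotypes did not overlap, with LPfl/+ lowest and LP245/+ highest, and LP+/+ replicate 1 lay with the other LP+/+ livers. Fgf21 had the smallest unadjusted p of the list in each comparison. Its log2 fold change was 0.82 in LP245/+ versus LP+/+ (SE 0.15, adjusted p = 0.795, against 0.0305 to 0.998 over the alternatives). In LPfl/+ versus LP+/+ it was -0.75 (SE 0.17, adjusted p = 0.697, against 0.152 to 0.99). In LP245/+ versus LPfl/+ it was 1.57 (SE 0.17, adjusted p = 0.0818, against 1.4e-07 to 0.295). Under some alternatives the adjusted p of Fgf21 was at most 0.05 in the first and the last of these comparisons. The 0.82 of the first is smaller than the fold change cutoff of 1. Per2 (log2 fold change 0.54, adjusted p = 0.795) was higher and Cry1 (-0.85, adjusted p = 0.795) lower in LP245/+ than in LP+/+, both clock repressors, with no overlap between the groups. The hour of collection and the feeding state of the mice are not given in the sources used here, and their part in the values of Apoa4 was not tested.

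**Figure D5:**
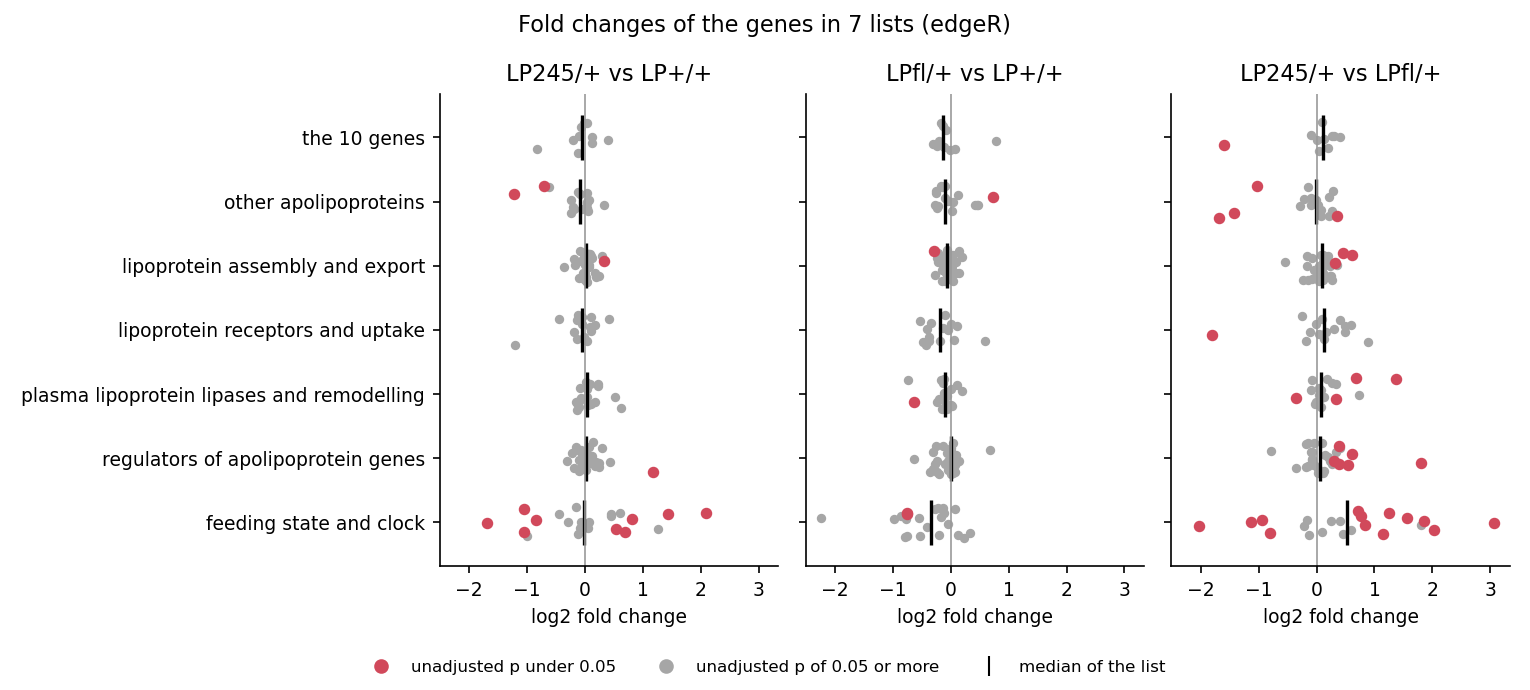
log2 fold changes of the genes of 7 lists in the 3 comparisons, 1 point per gene, red where the unadjusted p was below 0.05, with a black line at the median of the list. Apoa4 is the only red point among the 10 genes, and the list of feeding state and clock has the most red points, 9, 2 and 13.

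Of the markers of other cells of the liver, 0 passed the cutoff in any comparison (edgeR). In LPfl/+ versus LP+/+, 3 of 6 erythroid markers were lower at an unadjusted p below 0.05, Hba-a1, Hba-a2 and Hbb-bt, copies of globin genes whose reads may be shared, and Hba-a1 was also lower in LP245/+ versus LP+/+. Of 9 liver endothelial markers, Cdh5 was lower in LPfl/+ versus LP+/+ and Oit3 was higher in LP245/+ versus LPfl/+. Among 12 stellate cell markers Reln was higher in LP245/+ versus LPfl/+, and among the 6 cholangiocyte and 8 lymphocyte markers tested 0 had an unadjusted p below 0.05 in edgeR in any comparison. The 3 tested markers of intestine and exocrine pancreas also had 0 below it.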

How the data were processed

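RNA of 8 mouse livers was measured, 3 LP+/+, 2 LPfl/+ and 3 LP245/+. The authors aligned paired reads of stranded total RNA libraries to GRCm38 with STAR, summarised them per gene on a GENCODE annotation and deposited raw counts without normalization. The release and the strand counted are not given in the sources used here. All 8 columns were matched to a sample and 0 were left over. Symbols, exon lengths and positions came from GENCODE M21. With their version 43749 identifiers matched, 5577 matched without it and 259 had no symbol. Promoter windows came from RefSeq (GRCm38.p6).

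Counts were tested with edgeR 4.0.16 under R 4.3.3 (quasi-likelihood F test, TMM factors, filterByExpr, all 8 livers in 1 fit), with Benjamini-Hochberg adjustment over 16496 genes. Normalised read counts were counts divided by DESeq2 1.42.0 size factors. RPKM were CPM per kilobase of merged exons, from library totals. Log2 CPM used a prior count of 2. The self-test on simulated data passed. Permutations used scipy 1.17.1, and figures matplotlib 3.10.9 under Python 3.11.15. Alternatives covered DESeq2, other scaling, no filter and a minimum of 10 counts per liver, fits of 2 groups alone, the library series as covariate, the replicate number as a block, each liver left out, and calls by adjusted p alone. Each library was taken as 1 animal, as the study describes, and no pair of libraries was a duplicate (lowest chi-square per gene 18.4 over 28 pairs). Genes were named by rule: all 10, up to 4 of the smallest p per list and comparison with genes needed as background, cluster neighbours, and the most similar genes of the 3 most variable. The 10 genes and all lists were chosen with earlier results of these data known. The result of 1 gene of the receptor list is not reported here.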

Additional observations from a re-analysis of the deposited data

How the results depend on the processing

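Of 480 log2 fold changes of the 10 genes, 30 values each under 16 alternatives, 439 kept their direction and their side of the cutoff, 37 changed sign and 4 passed the cutoff (the values of Apoa4 below). With the library series as covariate, 11 changed sign: in LP245/+ versus LP+/+ Apoa2 (-0.10) and Apoa4 (0.34), in LPfl/+ versus LP+/+ Apoa1 (-0.10), Apoa2 (0.15), Apoa4 (-0.30), Apoc2 (0.26) and Apoe (0.20), and in LP245/+ versus LPfl/+ Apoa2 (-0.25), Apoa4 (0.64), Apoc3 (-0.02) and Tm6sf2 (-0.12). Scaling by library total changed Apoc2 to 0.05 in LPfl/+ versus LP+/+, and Apoa1 to -0.02 and Apoc3 to -0.06 in LP245/+ versus LPfl/+. The livers are not paired by their replicate numbers (correlation of deviations -0.082 to 0.034). With the replicate block, Apoa1 and Apoc3 changed to -0.01 and -0.01 in LP245/+ versus LPfl/+, the genes with an unadjusted p below 0.05 there went from 1 to 0 of the 10, and all genes called in LP245/+ versus LP+/+ from 1 to 0. The cause of these changes was not tested.

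Without the filter on low counts, 1, 1 and 1 of the 10 genes, each time Apoa4, had an unadjusted p below 0.05 in the 3 comparisons in the order used above, Apoa4 was called in LP245/+ versus LPfl/+ (1 of 10, adjusted p = 0.039), and 20, 14 and 122 of all genes were called. With only the groups compared in the fit, 1 of the 10, Apoa5, was below 0.05 in LPfl/+ versus LP+/+, and in LP245/+ versus LPfl/+ 1 was called, Apoa4 (adjusted p = 0.0469), with 51 of all genes. DESeq2 put 1, Apoa5, below 0.05 in LPfl/+ versus LP+/+ and called 10, 9 and 56 of all genes. The library series as covariate left 0 of the 10 below 0.05 in LP245/+ versus LPfl/+ and called 3, 3 and 10 of all genes. With protein-coding counts as the denominator, the share of the 10 genes differed from LP+/+ by 0.0932 percentage points in LP245/+ and 0.0527 in LPfl/+.

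Each liver was left out in turn, with the spread of a lone liver taken from the other groups. In LP245/+ versus LP+/+, 0 to 1 of the 10 genes were below 0.05 and 0 to 5 of all genes were called, and the values ran from -0.01 to 0.23 for Apoa1, -0.10 to 0.13 for Apoa2, -1.18 to 0.34 for Apoa4, -0.08 to 0.09 for Apoa5, -0.03 to 0.26 for Apob and -0.21 to 0.141 points for the share. In LPfl/+ versus LP+/+, 0 to 1 of the 10 were called, 0 to 2 were below 0.05 and 0 to 59 of all genes were called, 59 without LP+/+ replicate 1. The values ran from -0.07 to 0.16 for Apoa1, 0.41 to 1.94 for Apoa4, -0.13 to 0.05 for Apoc2, -0.63 to 0.05 for Tm6sf2 and -0.176 to 0.018 points for the share. In LP245/+ versus LPfl/+, 0 to 1 of the 10 were called, 0 to 2 were below 0.05 and 0 to 47 of all genes were called, 47 without LP+/+ replicate 1. The values ran from -0.03 to 0.17 for Apoa1, -0.03 to 0.06 for Apoc3, -0.20 to 0.03 for Apoe, -0.17 to 0.51 for Tm6sf2 and -0.115 to 0.237 points for the share. Without LP+/+ replicate 1, Apoa4 was called in LPfl/+ versus LP+/+ and in LP245/+ versus LPfl/+. That fit leaves LP+/+ in the first series only, so that in both comparisons series and genotype cannot be told apart. With 2 or 3 livers per genotype, the data do not exclude differences within the intervals given, and Apoc2 rests on 36 to 74 counts a liver.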

Other observations

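For the 3 genes with the largest SD of log2 CPM, the protein-coding genes most alike over the 8 livers were sought among 13313 genes by Pearson's r of log2 CPM. The livers share diet, tissue and the 2 series of library numbers, so these values describe the set of livers only. Closest to Apoa4 were Eepd1 (r = 0.987), which also lies on chromosome 9, Dzip3 (0.981) and Spata24 (0.981). Eepd1 had normalised read counts of 783.5, 521.5 and 483.7 (LP+/+), 720.4 and 770.4 (LPfl/+) and 414.4, 541.6 and 526.5 (LP245/+), the same division of the livers over a narrower range. Closest to Apoc2 were Nrg4 (0.974), Zfp35 (0.968) and the mitochondrial gene mt-Nd5 (0.947). mt-Nd5 had 33266 normalised counts in LP245/+ replicate 1 and between 13509 and 19246 in the others, the liver in which Apoc2 stood apart. Closest to Tm6sf2 were Copg2 (0.965), Ppm1l (0.959) and Shpk (0.957), all 3 lowest in LPfl/+ replicate 2, the liver in which Tm6sf2 was lowest.

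Among the 10 genes themselves, Apoa2 and Apoa5 had the highest correlation of log2 CPM over the 8 livers (r = 0.71, and 0.69 after removal of the genotype means), and Apoa1 and Apoe the lowest (r = -0.76, and -0.74). After removal of the genotype means the highest value was that of Apoa5 and Apoe (r = 0.92, against 0.52 before) and the lowest that of Apoc2 and Mttp (r = -0.83, against -0.59 before). Apoa4 correlated with Apoa2 at -0.72 and with Apoc2 at -0.72, and all 3 of these genes were without overlap between the series of library numbers in log2 CPM, Apoc2 not so in counts divided by DESeq2 size factors.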
